A study of Mus musculus with 5 samples.

Results

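Vascular smooth muscle cells were described here among cells sorted from the aortic arch of mice for single-cell RNA sequencing. A cell was counted as smooth muscle when at most 25% of its molecules came from mitochondrial genes and 3 further conditions held. Myh11, Acta2, Tagln and Cnn1 together had to reach 60 per 10000 molecules of the cell, this sum could not lie below that of Col1a1, Col1a2, Col3a1 and Dcn, and C1qa, C1qb and C1qc together had to stay under 30. These sums chose the cells, so the marker levels given below describe the choice and support nothing. There were 166 such cells among 1656 cells that passed the mitochondrial limit, of 1743 cells in all. Lists of genes and the sets of cells set beside them were also chosen with earlier results of these data known.

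Medial smooth muscle cells form the elastic wall of the arch and contract through smooth muscle myosin and actin. In atherosclerosis these cells are known to lose part of the contractile programme and to take on matrix-producing, fibroblast-like states, with Lum, Vcam1, Ly6a, Spp1 and Lgals3 among the genes used to follow the change. Serum amyloid A3, the product of Saa3, is an acute-phase protein made in mouse by macrophages and stromal cells. CD45, encoded by Ptprc, marks leukocytes and is not a smooth muscle protein, so smooth muscle cells reach a CD45-positive sort only as cells carried over with it.

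The arch sample is 1 GEO sample of 2 tagged pools, both of female mice. In the pool labelled wild-type the labels give C57BL/6J mice, and in the pool labelled Saa3-/- mice that carry the allele Saa3tm1.1(KOMP)Vlcg on C57BL/6N, although the study's text speaks of littermates. Both groups were injected with the same adeno-associated viral vector to induce atherosclerosis, and both were fed a Western diet for 18 weeks. An age of 12 weeks is given, and the study's text ties it to the mice used for the induction. The number of mice behind each pool is not stated, and mice without the vector and diet were not analysed here. With 1 pool for each genotype there is no replicate, so no test between the pools was made. Genotype, strain, pooled animals and sample tag cannot be told apart.

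The summed level of the targeted gene followed the labels in some cells and not in others. Over all cells Saa3 (chromosome 7, 46711998 to 46715700, minus strand, GRCm38) had 148 CPM (its molecules scaled to 1000000 molecules of those cells) in the pool labelled wild-type and 242 CPM in the pool labelled Saa3-/-. Of the 1268 Saa3 molecules in the latter pool, 2 cells counted as fibroblasts held 799 and 325. Without the 2 cells highest in Saa3 in each pool, a comparison added after seeing the data, the order turned, with 96.2 CPM in the pool labelled wild-type and 27.8 CPM in the other. Cells with at least 30 C1q molecules per 10000 had 310.0 CPM in the pool labelled wild-type and 27.7 CPM in the pool labelled Saa3-/-. In the pool labelled wild-type they held 922 of the 1079 molecules, and 2 of these cells held 244 and 138. After each cell was thinned to 2000 molecules, Saa3 was found in 9.09% of 231 and 7.05% of 156 such cells. The exact 95% intervals, 5.72 to 13.6% and 3.57 to 12.3%, overlapped. The share of these cells with Saa3 thus did not clearly follow the labels. In smooth muscle cells Saa3 was scarce in both pools. The pool labelled wild-type had 19 molecules, spread over 15 of its 101 cells, which is 23.3 CPM with a 95% exact Poisson interval of 14.1 to 36.4. The other pool had 20 molecules in 11 of 65 cells, 41.7 CPM with an interval of 25.4 to 64.3, and 9 of those molecules lay in 1 cell. Lymphocytes of the same pools, with 30.8 and 20.4 CPM, carried Saa3 at a level whose order between the pools was the opposite. The part of Saa3 that the allele removes is not stated in the sources used here, so molecules from a remaining end of the gene would not be seen as such. All intervals in the text cover counting error only, not the spread between mice.

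Smooth muscle cells made up 101 of 833 cells in the pool labelled wild-type, 12.1% with an exact Clopper-Pearson 95% interval of 9.99 to 14.5%. In the pool labelled Saa3-/- the share was 65 of 823 cells, 7.90% with an interval of 6.15 to 9.96%. The share was thus 4.23 percentage points lower in the pool labelled Saa3-/-, with a counting interval from 7.21 points lower to 1.26 points lower. Because these cells passed a sort for another surface protein, the shares count carried-over cells and are no measure of the wall's makeup.

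**Figure D1:**
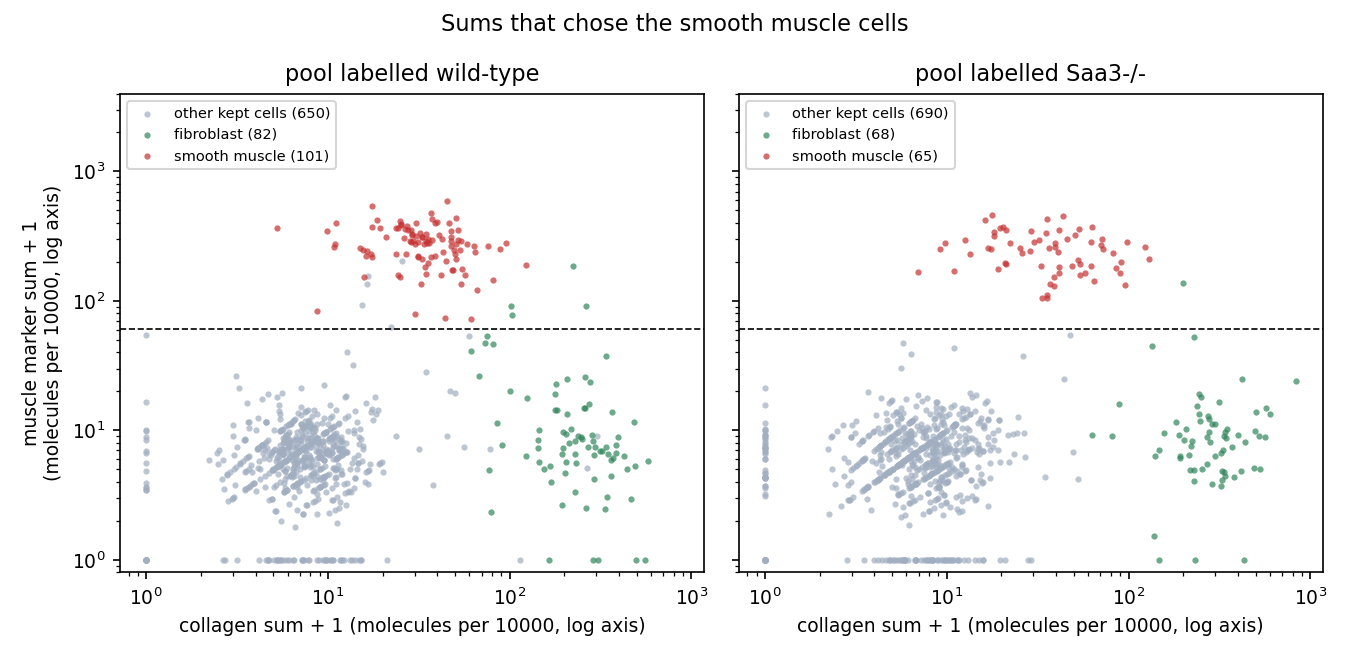
Sum of the 4 muscle markers (vertical axis) against the sum of Col1a1, Col1a2, Col3a1 and the proteoglycan gene Dcn, called the collagen sum (horizontal axis). Both are plus 1, in molecules per 10000 molecules of a cell on log axes. Each point is 1 cell that passed the mitochondrial limit, coloured by class, and the dashed line is the limit of 60. The 101 and 65 smooth muscle cells form a group of their own, between 70.9 and 588 in the pool labelled wild-type and between 104 and 463 in the pool labelled Saa3-/-.

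The limit fell in a sparse range. The lowest members had a marker sum of 70.9 and 104 per 10000 in the pools labelled wild-type and Saa3-/-. The highest cells below the limit that met the other conditions had 53.9 and 53.5. Between 30 and 60 lay 3 and 4 cells, and between 60 and 120 lay 4 and 3 members. The collagen condition kept 4 and 1 cells with enough marker molecules out, the C1q condition 5 and 0, and the mitochondrial limit 16 and 8. Members held a median of 8129 molecules from 2813 genes in the pool labelled wild-type and 6665 molecules from 2679 genes in the pool labelled Saa3-/-, with totals of 814042 and 480143 molecules.

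Messages of the sort marker were low in the members. Ptprc stood at 86.0 CPM in members of the pool labelled wild-type and 146 CPM in the other, against 1343 and 1294 CPM in lymphocytes, cells with at least 10 molecules of T cell or B cell genes per 10000 in none of the other classes. A Ptprc molecule was found in 34 of 101 and 25 of 65 members, at median depths of 8129 and 6665 molecules. After each cell was thinned to 2000 molecules the shares were 9.09% of 99 and 17.7% of 62 members, with 2 and 3 shallower cells left out. In lymphocytes thinned in the same way they were 85.9% and 85.8%. Messages of another cell type were also found at a common low level. C1qb, a macrophage complement gene, had 233 and 254 CPM in members, 229.9 and 235 CPM in lymphocytes and 240.3 and 223 CPM in fibroblasts. In the reverse direction, lymphocytes carried 427 and 396 CPM of Acta2 and 65.4 and 79.7 CPM of Myh11. Members, fibroblasts and lymphocytes were all chosen with a C1q sum under 30 per 10000, and lymphocytes also as not smooth muscle. High values were thus excluded by the choice of cells. Values near these were read as background.

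A few members held leukocyte messages above that level. The 10 leukocyte genes together reached at least 20 per 10000 molecules in 3 of 101 and 4 of 65 members, and 5 of these 7 cells also held at least 10 per 10000 of the T cell genes. Another of the 7, in the pool labelled wild-type, had 59.2 leukocyte molecules per 10000, a marker sum of 83.2 and 102 molecules of Lgals3, 58 of Lyz2 and 35 of Cd68. Without the 7 cells Ptprc in members was 51.8 and 69.5 CPM, lower by more than 1.5 times in both pools. Ptprc is itself among the 10 leukocyte genes, so a fall was set by the choice of these cells. Scrublet, a doublet caller, marked 1 of the 3 and 0 of the 4 cells, and the tag table marked 11 of 2401 putative cells as multiplets.

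Other cell types of the wall and its surroundings were scarce among the members. Of 5 endothelial genes, Kdr was at 0 in both pools and Pecam1, which platelets and leukocytes also carry, had 50.4 and 79.1 CPM, against 81.1 and 103 CPM in lymphocytes. The 4 adipocyte genes summed to 0 CPM in the pool labelled wild-type and 2.08 CPM in the other, and of the cardiomyocyte genes Myh6 and Myl7 were at 0. The cardiac troponin gene Tnnt2 was the exception, with 36 molecules in 9 cells of the pool labelled wild-type and 37 molecules in 6 cells of the pool labelled Saa3-/-. Des, the muscle intermediate filament desmin, was present in 10 and 8 members, at 72.5 and 45.8 CPM.

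**Figure D2:**
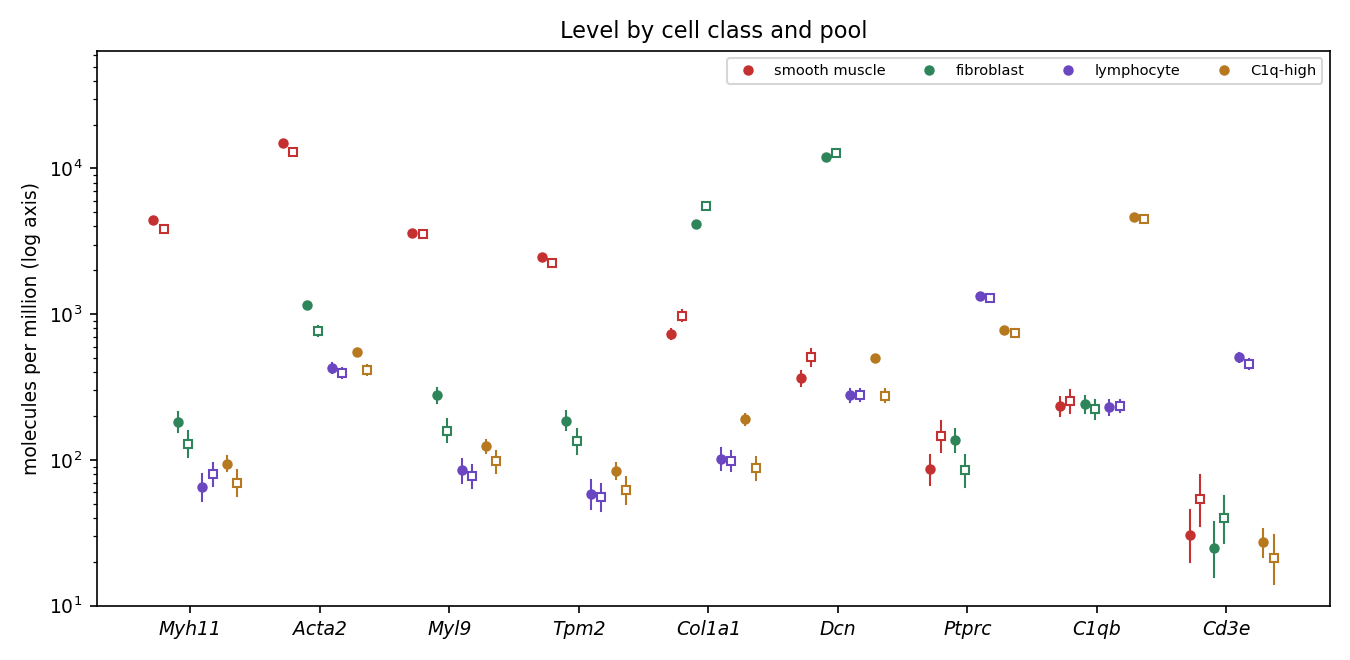
Level of 9 genes in 4 cell classes, in CPM on a log axis, with exact 95% Poisson intervals that cover counting error only. Filled circles are the pool labelled wild-type and open squares the pool labelled Saa3-/-. Smooth muscle cells stand far above the other classes in the contractile genes Myh11, Acta2, Myl9 and Tpm2, and near the level of fibroblasts and lymphocytes in C1qb, for which the C1q-high class was chosen. Myh11, Acta2, Col1a1, Dcn, C1qb and Cd3e were among the genes that chose the classes.

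The contractile programme filled a large part of the members' messages. The 23 genes of the contractile list, of which 4 chose the cells, summed to 59314 CPM in the pool labelled wild-type and 54355 CPM in the pool labelled Saa3-/-. Fibroblasts held 6269 and 4595 CPM of the same list. Acta2, smooth muscle actin (chromosome 19, 34241090 to 34255590, minus strand, GRCm38), held the most molecules of any gene outside mitochondrial and ribosomal protein genes. Its lowest, median and highest level over members was 36.6, 143 and 474 per 10000 in the pool labelled wild-type and 36.8, 130.3 and 268 in the pool labelled Saa3-/-. Every member held Acta2, and the ranges of the pools overlapped, with 5 members of the pool labelled wild-type above every member of the other. Tagln, the actin-binding transgelin, had 7642 and 7149.9 CPM, and Myh11, the smooth muscle myosin heavy chain, 4460.5 and 3828 CPM. The regulatory light chain Myl9 stood at 3618 and 3576 CPM, caldesmon (Cald1) at 3529 and 3547 CPM and the essential light chain Myl6 at 5469 and 5151 CPM. Molecule counts are not corrected for transcript length, so levels are compared between cells and not between genes. Of Acta2's 50-base stretches, 0.326% also occurred in transcripts of another gene, most often Actg1, so the actin genes were largely separable.

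Upstream of several contractile genes the sequence holds the CArG box, the site that serum response factor and its partner myocardin are known to use. It was searched for on both strands in the 250 bases before each start in RefSeq's promoter table (GRCm38.p6), which had an entry for 19 of the 23 genes. The box was present in 3 of the 19 and in 439 of 27025 genes in the table, 1.62%. When 1 of its 6 middle bases could differ, it was present in 5 of 19 and in 2643 genes, 9.78%. A match is a description of these letters and not of binding. The stretches of 4 of these genes are printed 5′ to 3′ on the gene's strand because they are abundant contractile genes of these cells, with capitals for the box or its variant with 1 base off.
Myl9 (chr2:156775278-156775399, plus strand): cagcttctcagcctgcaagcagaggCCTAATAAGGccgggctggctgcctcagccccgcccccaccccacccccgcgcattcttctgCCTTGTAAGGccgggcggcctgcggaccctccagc
Vcl (chr14:20929148-20929205, plus strand): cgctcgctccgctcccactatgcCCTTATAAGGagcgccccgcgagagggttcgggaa
Myl6 (chr10:128493025-128493084, minus strand): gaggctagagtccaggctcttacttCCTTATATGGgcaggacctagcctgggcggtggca
Acta2 (chr19:34255374-34255482, minus strand): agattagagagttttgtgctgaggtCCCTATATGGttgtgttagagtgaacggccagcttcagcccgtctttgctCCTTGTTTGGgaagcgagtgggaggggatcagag
In Myl9 the first match, 161 bases before the start, is the box itself and the match at 99 bases has 1 base off. Both matches of Acta2, at 84 and 34 bases, have 1 base off.

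Some genes for tone and relaxation accompanied the contractile genes. The subunits of the nitric oxide receptor, soluble guanylate cyclase, had 344 and 312 CPM (Gucy1a1) and 237 and 208 CPM (Gucy1b1), against 41.1 and 14.6 CPM and 29.2 and 17.2 CPM in fibroblasts. Kcnmb1, the accessory subunit of the large calcium-activated potassium channel, had 316 and 248 CPM and its pore Kcnma1 had 144 and 179 CPM. The calcium pump Atp2a2 had 597 and 654 CPM. Of 7 ion channel and calcium genes with at least 50 molecules in members and fibroblasts together, 5 were at least 2-fold higher than in fibroblasts in both pools, beside 5.27% of all genes. By the same limits 3 of 11 receptor and relaxation genes were higher, 3 lower and 5 neither. Of 10 transcription factor genes 3 were higher, 1 lower and 6 neither. Over all genes 8.54% were lower. Vasoconstrictor receptors were barely seen. Agtr1a, the angiotensin receptor, gave 1 and 0 molecules in the pools, and the endothelin receptor Ednra gave 5 and 4. Myocd, encoding myocardin, had 77.4 and 112 CPM in 39 and 31 members, against 11.9 and 6.63 CPM in fibroblasts.

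The comparison with fibroblasts of the same pools asked what else set these cells apart from the other mesenchymal cells carried over. The fibroblasts were 82 and 68 cells with a collagen sum of at least 60 that exceeded the marker sum and a C1q sum under 30. Both classes were cut by levels in these same cells, so the comparison is a description. Of 7671 genes with at least 50 molecules in members and fibroblasts together, 5.27% were at least 2-fold higher in members in both pools and 8.54% at least 2-fold lower, 404 and 655 genes. All 19 contractile genes outside the rule were among the higher ones. The farthest above fibroblasts were Mylk4, a myosin light chain kinase family member, with 576 and 481 CPM against 15.2 and 10.6 CPM, and E030013I19Rik. Sost, the Wnt inhibitor sclerostin best known from osteocytes, stood at 856 and 675 CPM against 45.5 and 13.3 CPM and was found in 85 and 45 members. Sh3bgr, Pcp4l1, Pgm5 and Kcnmb1 followed, besides the rule genes Cnn1, Tagln and Myh11. At the other end were Scn7a, Dio2, Ccl11, Shisa3 and Scara5. Scara5, a fibroblast scavenger receptor, gave 5 and 3 molecules in members and 412 and 319 in fibroblasts.

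Matrix genes divided the members from the fibroblasts less sharply than the contractile genes did. Of 22 genes of the medial matrix list, 2 were at least 2-fold higher in members in both pools, 7 lower and 13 neither. Over all genes 5.27% were higher and 8.54% lower, so genes of the list were past 2-fold more often than genes at large. The higher pair was Col18a1, the collagen that yields endostatin, with 654 and 566 CPM against 118 and 131 CPM, and Postn, periostin, with 731 and 637 CPM against 327 and 186 CPM. Mgp, the calcification inhibitor matrix Gla protein, followed Acta2 in molecules, at 8191 and 9120.2 CPM, and stood at 11497 and 11371 CPM in fibroblasts. Elastin (Eln) had 1757 and 1737 CPM in members and 1949.6 and 739 CPM in fibroblasts, so its order between the classes differed by pool. Fn1, fibronectin, was lower in members, at 677 and 479 CPM against 1584 and 2719.8 CPM.

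Genes of the modulated state were low in the members, which the rule chose by their contractile markers. Cells that had lost these markers, or in which the collagen sum exceeded them, were not counted. The low level thus follows in part from the rule and is no measure of modulation in the wall. Fibroblasts carry several of these genes themselves and serve only as a reference for level. Of the 18 genes, 12 were at least 2-fold lower than in fibroblasts in both pools and none higher, beside 8.54% and 5.27% of all genes. Ly6a, a stem and mesenchymal surface antigen, had 49.1 and 52.1 CPM against 1374 and 796 CPM. Lum, the small leucine-rich proteoglycan lumican, had 95.8 and 196 CPM against 2162 and 2912 CPM, and lymphocytes had 60.1 and 56.8 CPM. The cartilage gene Col2a1 was at 46.7 and 33.3 CPM, and lymphocytes had 60.1 and 62.4 CPM. Fibroblasts of the pool labelled Saa3-/- had 3496 CPM of Col2a1 and 1902 CPM of Spp1, against 634 and 179.7 CPM in the other pool. The summed levels of these genes in fibroblasts thus differed between the pools. How far single fibroblasts made up these sums was not examined.

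Within the members the programmes varied from cell to cell. The 4 rule markers and the 19 other contractile genes, each as a share of the cell's molecules, had a Spearman correlation of 0.81 between the sums over the 166 cells, 0.78 in the pool labelled wild-type and 0.82 in the pool labelled Saa3-/-. The other contractile genes and the medial matrix genes had a correlation of -0.47, with -0.49 and -0.39 within the pools. The first sum chose the cells. All are shares of the same total and the cells of a pool share a library, so these are descriptions. Molecules per cell had correlations of 0.02 with the contractile and 0.08 with the matrix share. Per 10000 molecules the 19 genes ran from 92.3 over a median of 328 to 497 in the pool labelled wild-type and from 143 over 309 to 568 in the pool labelled Saa3-/-, and the matrix list from 86.0 over 247 to 832 and from 119 over 264 to 605. The members thus spanned a range of both programmes in each pool.

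Small sets of members held most molecules of some genes. They were picked by at least 4 molecules of a gene after the values had been seen. Lum reached that in 6 members of each pool. These 12 cells held 64.5% of the members' Lum molecules, and their marker sum had a median of 161 per 10000 against 275 in the others. Dcn, a collagen-binding proteoglycan and one of the rule's genes, stood at 1626 against 280.1 CPM in the other members, Vcam1, an adhesion molecule, at 667 against 68.7 CPM, and Mgp at 15688 against 7734 CPM. Mt1, a metallothionein, had 7882 against 1579 CPM and was found in all 12. Cp, the ferroxidase ceruloplasmin, had 636 against 78.2 CPM, and Acta2 was 9500.0 against 14640.4 CPM. Mmp3 and Retnla were also higher there, at 1058 against 105 CPM and 491 against 31.8 CPM, but a single cell held 124 of 138 Mmp3 molecules and a single cell 59 of 64 Retnla molecules. Other genes of the modulated state were lower in the set, Lgals3 at 69.0 against 289 CPM and Spp1 at 69.0 against 179 CPM. Among the other members, 1 leukocyte-rich cell held 102 Lgals3 and 172 Spp1 molecules. Sfrp2 and Col14a1, both higher in fibroblasts than in members, hardly differed, at 391 against 408 CPM and 184 against 186 CPM.

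Rgs5, a regulator of G-protein signalling used as a pericyte marker, reached 4 molecules in 5 and 7 members. Those 12 cells had 1571 against 14.2 CPM of Rgs5 in the rest. The pericyte genes Abcc9, Cspg4 and Kcnj8 did not set them apart. Abcc9 had 388 against 385 CPM, Cspg4 241 against 278 CPM and Kcnj8, with 2 molecules, 21.0 against 23.4 CPM. Of 2 further mural cell genes, Notch3 was found in 1 of the 12. Pdgfrb was higher, at 126 against 75.1 CPM, with 12 molecules in 5 cells. Tnnt2 was at 335 against 34.2 CPM, but only 3 of the 12 cells held it. Mmp3 reached 4 molecules in 10 members of the pool labelled wild-type and 2 of the other. The sets overlapped little, with 1 cell shared between Lum and Rgs5, 2 between Lum and Mmp3 and 2 between Rgs5 and Mmp3.

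**Figure D3:**
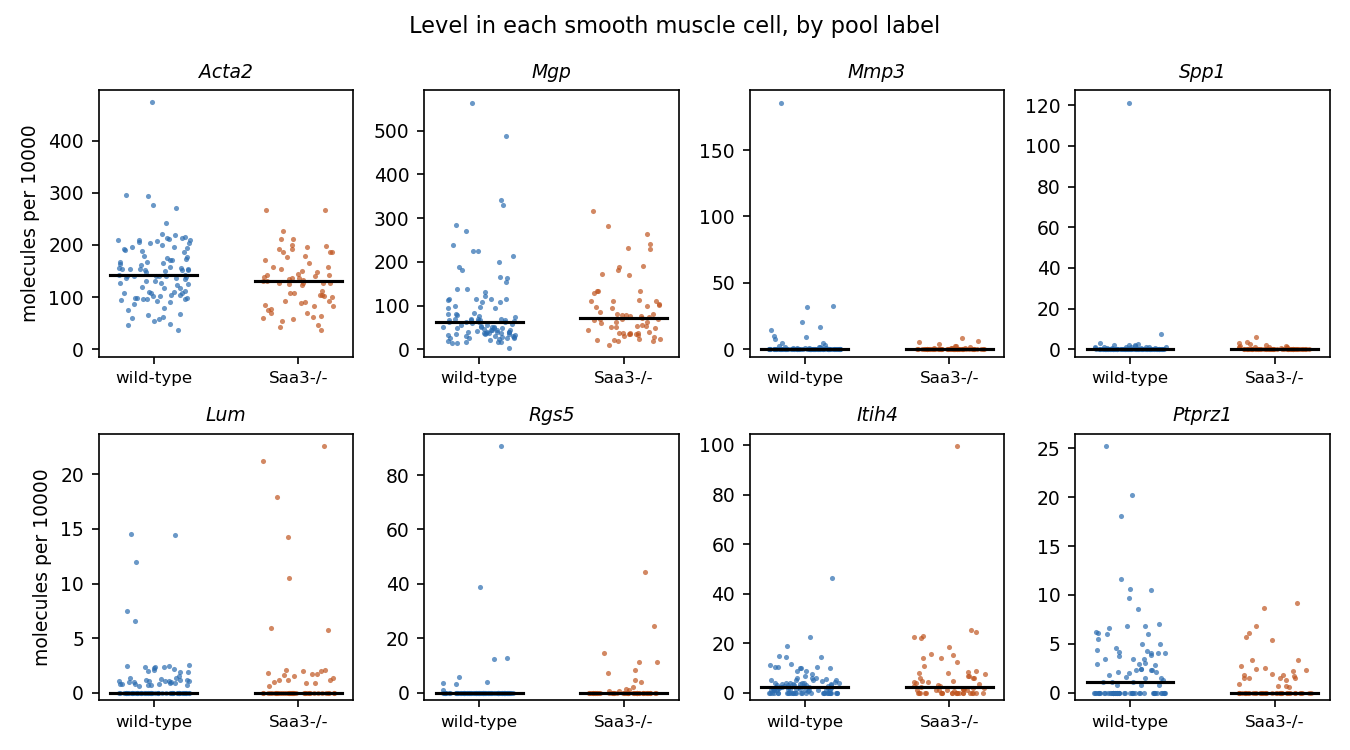
Level of 8 genes in each of the 101 and 65 members, in molecules per 10000 molecules of the cell on linear axes that differ between genes. Points are cells, spread sideways for sight, and the bar is the median. Acta2 and Mgp were present in every member of both pools, while the high values of Mmp3, Spp1, Lum and Rgs5 lay in few cells.

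Between the pools the members differed in few genes. Of 4202 genes with at least 50 molecules in members, 1.57% were at least 2-fold apart, with 28 (0.666%) higher in the pool labelled Saa3-/- and 38 (0.904%) lower there. The median log2 ratio over all genes was 0.02, with 52.3% of genes above 0, and all ratios have the pool labelled Saa3-/- as numerator, with 0.5 molecules added to both sums. With edgeR's TMM scaling, chosen as an alternative, 22 were higher and 49 lower. Of the 66 genes, 53 had under 100 molecules, where counting error alone is wide. When the highest cell of each pool was left out for each gene, 14 of the 66 came within 2-fold. The limit of 50 molecules set the count, which was 464 of 7599 genes (6.11%) at 20 molecules and 6 of 1021 genes (0.588%) at 200.

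**Figure D4:**
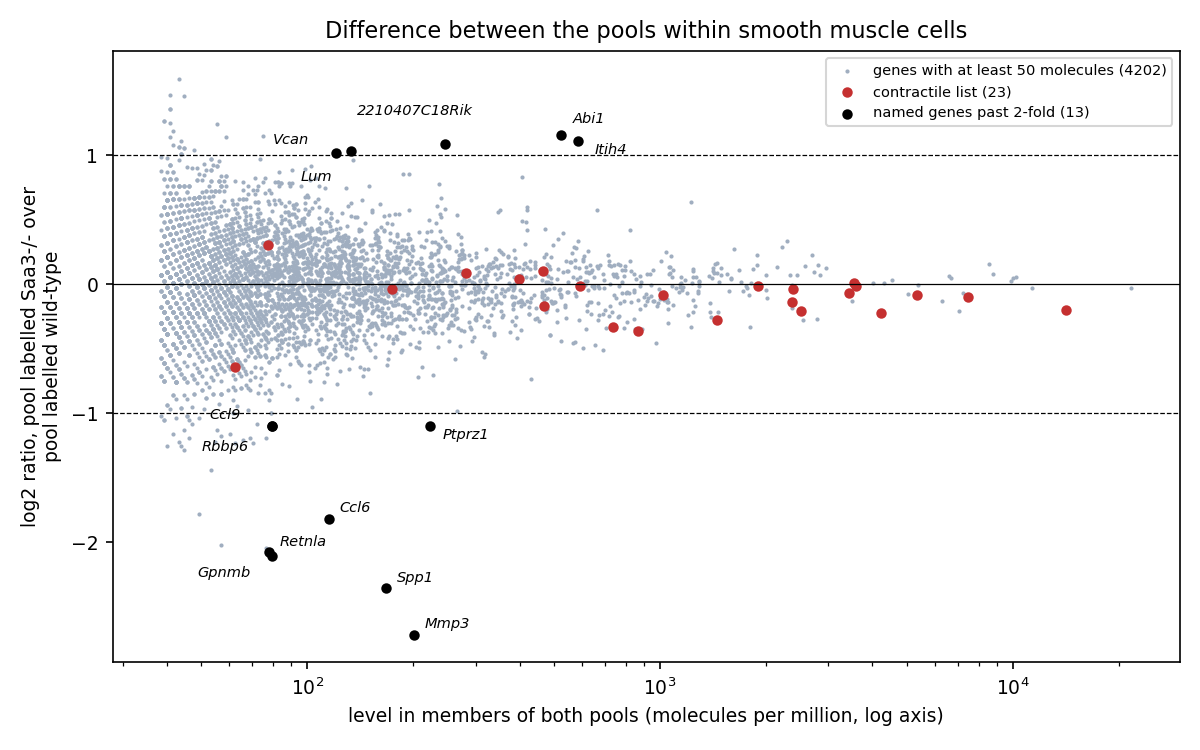
Log2 ratio between the pools, above 0 where the one labelled Saa3-/- was higher (vertical axis), against the level in members of both pools (horizontal axis, CPM, log axis) for 4202 genes. Red points are the 23 contractile genes, black points the 13 named genes past 2-fold, and dashed lines mark 2-fold. The contractile genes lie between -0.64 and 0.30, inside the lines.

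None of the 23 contractile genes was 2-fold apart, which is near the 1.57% of all genes and sets the list apart in nothing. Of the 23 genes, 18 lay below 0 with a median of -0.08, beside 52.3% of all genes above 0. Over the 19 outside the rule 14 lay below 0 with a median of -0.04. Cnn1, the actin-binding calponin, had 946 and 733 CPM, a log2 ratio of -0.37 with a counting interval of -0.55 to -0.18. Its lowest, median and highest level over members was 0, 8.80 and 32.7 per 10000 in the pool labelled wild-type and 0, 6.13 and 22.5 in the other, so the ranges overlapped. The 20 medial matrix genes tested had a median of -0.06 and none was past 2-fold, also near the 1.57% of all genes. Fn1 had the lowest ratio among them, -0.50, and Fbn1, the microfibril protein fibrillin, the highest at 0.34. Col1a1, Col1a2, Col3a1 and Dcn, the genes of the rule's collagen sum, lay above 0 with a median of 0.35.

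Mmp3, the matrix-degrading stromelysin (chromosome 9, 7445822 to 7455975, plus strand, GRCm38), was the gene farthest apart among those with at least 100 molecules. It had 239 molecules in 22 members of the pool labelled wild-type and 21 in 11 members of the other, a log2 ratio of -2.72 with an interval of -3.47 to -2.10. The lowest, median and highest cells were at 0, 0 and 186 per 10000 in the first pool and 0, 0 and 8.25 in the second. A single cell, among the Lum-rich members described above, held 124 of the molecules. Without the highest cell of each pool the ratio was -2.03. Fibroblasts had more Mmp3 in both pools, at 928 and 1065 CPM against 294 and 43.7 CPM in members. The order between the pools was not shared by fibroblasts. Of the 50-base stretches of Mmp3 8.39% also occur in other transcripts, most often those of Mmp10.

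Ptprz1, a receptor tyrosine phosphatase (chromosome 6, 22875502 to 23052916, plus strand, GRCm38), was spread over more cells. It had 227 molecules in 54 of 101 members and 62 in 26 of 65, a log2 ratio of -1.10 with an interval of -1.54 to -0.70 and -1.07 without the highest cells. After every member was thinned to 2000 molecules the ratio was -0.64, inside 2-fold. Fibroblasts had 11.9 and 11.9 CPM and lymphocytes 12.0 and 11.7 CPM of it, against 279 and 129 CPM in members. The lowest, median and highest members were at 0, 1.07 and 25.2 per 10000 in the pool labelled wild-type and 0, 0 and 9.23 in the other, so the ranges overlapped.

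In 5 of the lower genes single cells held a large share of the molecules. Spp1, encoding osteopontin, had 195 against 22 molecules and a ratio of -2.36, but 172 of them lay in the cell with macrophage messages described above, and without the highest cells the ratio was 0.43. The same cell held 60 of the 91 molecules of Gpnmb, a gene of lipid-laden macrophages, and 61 of 128 of the chemokine gene Ccl6. The ratio of Gpnmb was -2.11 with all cells and -1.13 without the highest cells, and that of Ccl6 was -1.82 and -1.11. Both came inside 2-fold, at -0.60 and -0.91, when that 1 cell was left out, and at -0.68 and -0.91 after thinning. Gpnmb was also inside at -0.52 without the 7 leukocyte-rich members and at -0.64 with a marker sum of at least 120. Retnla had 59 of its 89 molecules in 1 cell and a ratio of -2.08, or -0.80 without the highest cells, inside 2-fold. The chemokine gene Ccl9 had 81 against 22 molecules, of which the cell with macrophage messages held 21, and a ratio of -1.10. It came inside 2-fold in 5 of 12 alternatives, at -0.69 without that cell and -0.15 after thinning. Ccl9 had 1009 and 922 CPM in cells with at least 30 C1q molecules per 10000, against 99.5 and 45.8 CPM in members. Whether background or other cells joined to a member made up part of these values was not tested.

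Rbbp6, a ubiquitin ligase gene, was spread over 46 and 17 members. It had 81 against 22 molecules and a ratio of -1.10, or -1.16 without the highest cells. The ratio was -0.97 with each cell weighing the same and -0.91 after thinning, both inside 2-fold. Lymphocytes had 289 and 337 CPM of it against 99.5 and 45.8 CPM in members.

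On the higher side 5 genes with at least 100 molecules were past 2-fold. Abi1, an actin regulator, had 359 against 799.8 CPM (log2 ratio 1.16) and Itih4, a hyaluronan-binding plasma protein gene, 410.3 against 885 CPM (1.11). In the pool labelled Saa3-/- 1 cell held 108 of 384 Abi1 molecules and 1 cell 111 of 425 Itih4 molecules. Without the highest cells their ratios were 0.91 and 0.89, and after thinning 0.78 and 0.62, inside 2-fold. The gene 2210407C18Rik had 173 against 369 CPM and a ratio of 1.09, or 1.02 without the highest cells and 0.82, inside 2-fold, after thinning. Lum had 95.8 against 196 CPM (1.03), and Vcan, the large proteoglycan versican, 87.2 against 177 CPM (1.02). Without the highest cells these were 0.88 and 0.89, inside 2-fold. In the 12 Lum-rich members, of which each pool had 6 among 101 and 65, Abi1 stood at 2423 against 309 CPM in the other members and 2210407C18Rik at 905 against 172 CPM. In this set 1 cell held 108 of 316 Abi1 molecules and 1 cell 32 of 118 of 2210407C18Rik. Whether these cells made up the ratios between the pools was not tested.

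**Figure D5:**
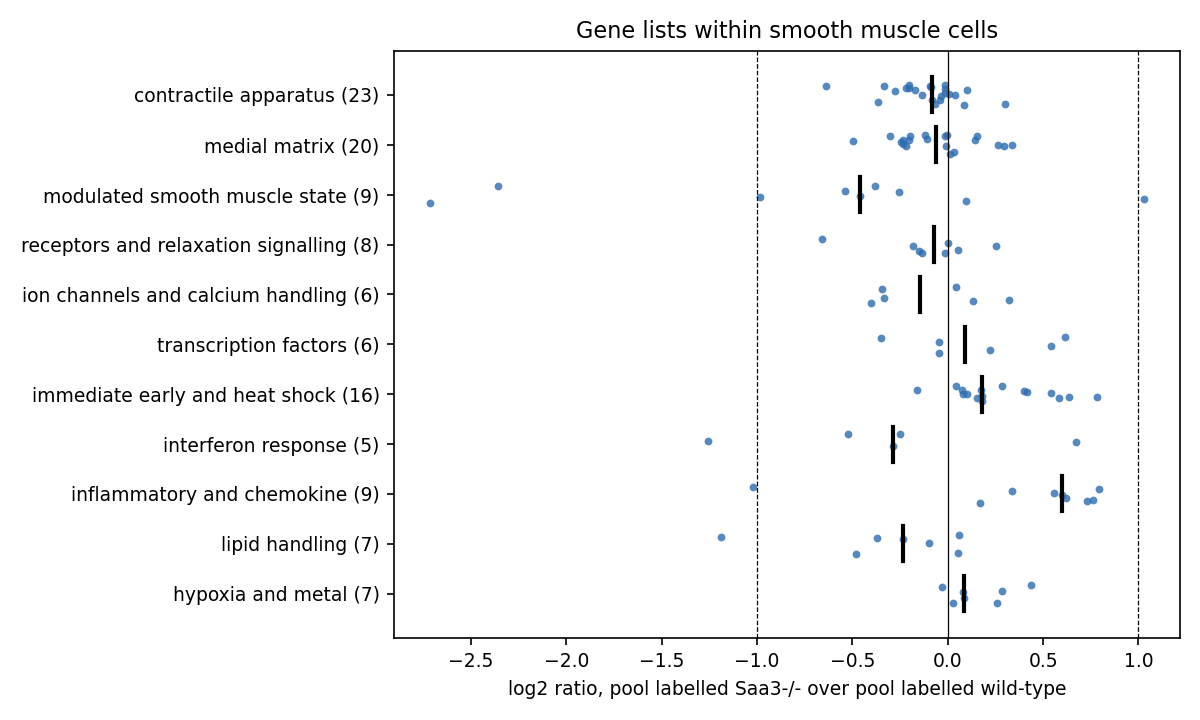
Log2 ratio between the pools, above 0 where the one labelled Saa3-/- was higher, for the tested genes of each list, 1 point per gene with the number of genes in brackets. The thick bar is the median and the dashed lines are 2-fold. The medians of the contractile and matrix lists lie at -0.08 and -0.06, and that of the inflammatory list at 0.60.

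Response genes moved apart by less than 2-fold with few exceptions. Of 16 immediate early and heat shock genes 15 lay above 0, with a median of 0.18, beside 52.3% of all genes above 0. After thinning to 2000 molecules the median was -0.01. The median cell was lower in the pool labelled Saa3-/-, at 69.4 per 10000 for the list against 82.9, and the upper quartile was higher, at 155 against 113. Fos had 2291 and 2412 CPM and Hspa1a 187 and 321 CPM, although 60.3% of Hspa1a's 50-base stretches also occur in transcripts of other genes, most often Hspa1b, so this pair cannot be told apart. Of 9 inflammatory genes tested 8 lay above 0, with a median of 0.60. Nfkbia, the inhibitor of NF-kB, had 354 and 535 CPM (0.60) and C3 of complement 130.2 and 192 CPM (0.56). C3 stood at 5606 and 3685 CPM in fibroblasts, and lymphocytes had 115 and 134 CPM, so the members' level lay near background. Icam1, with 46 against 13 molecules, was past 2-fold in the other direction at -1.02.

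Interferon genes were scarce. Only 5 of the 14 reached 50 molecules, of which 4 lay below 0 with a median of -0.29. The lowest of the 5, at -1.26, was past 2-fold, beside 0.904% of all genes that were lower. B2m, the light chain of MHC class I, had 1483 and 1245 CPM. In the lipid list Lpl, lipoprotein lipase, was past 2-fold with 71 against 18 molecules (-1.19, interval -2.05 to -0.46), in 42 and 11 members. Apoe had 639 and 664 CPM, near the 655 and 647 CPM of lymphocytes, and Lrp1, a lipoprotein receptor, 263 and 223 CPM. Of the proposed receptors for serum amyloid A, none reached 50 molecules. Tlr4 had 30 and 14 molecules, Tlr2 had 14 and 8, Cd36 had 22 and 2, Fpr2 had 3 and 0 and Scarb1 had 6 and 6.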

How the data were processed

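CD45-positive, live cells of digested aortic arch were sorted, labelled with BD sample tags and sequenced as BD Rhapsody whole-transcriptome libraries, per the labels' protocols. The deposited tables hold raw counts of molecules per cell and gene, made with the BD Rhapsody WTA Analysis Pipeline 1.11.1 per the file headers, and the sample tag called for each cell. The submitters' processing notes name mm10, R 4.3.1 and Seurat 4.3.0. The labels assign tags to genotypes, and the 2 pools shared 0 cell indices. The macrophage cultures of the series were not used here. Some details and results are not reported here.

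Cells were classed by the rule given above, and no doublet caller was used except as an alternative (scrublet in scanpy 1.11.5). Molecules were summed per pool and class and scaled to 1000000. Ratios between the pools added 0.5 molecules to each sum and took genes with at least 50 molecules. A gene was called past 2-fold by size alone, since 1 pool per genotype allows no test. Intervals are exact Poisson or Clopper-Pearson at 95%. Scripts ran in Python 3.11.15 with numpy 2.4.6, pandas 2.3.3 and scipy 1.17.1, and edgeR 4.0.16 served only for TMM scaling. The computation of ratios was tested on simulated data. Named genes are the rule's markers, the 15 with most molecules, the 10 highest and 5 lowest against fibroblasts (at least 200 molecules), up to 8 on each side between the pools (past 2-fold, at least 100 molecules), Saa3 and members of fixed lists. Members and lists were chosen with earlier results of these data known. Alternatives covered the limits of the rule, filters, scaling, pseudocount, thinning and the removal of doubted cells.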

Additional observations from a re-analysis of the deposited data

How the results depend on the processing

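The smooth muscle share was lower in the pool labelled Saa3-/- in 10 of 10 alternatives, by 6.12 to 4.10 percentage points in size (-6.12 to -4.10). The median ratio of the contractile list stayed between -0.13 and -0.04 in 11 of 11. The count of genes 2-fold apart depended on filter and depth. It was 464 with at least 20 molecules (228 higher, 236 lower) and 6 with at least 200 (3 higher, 3 lower). At a 1.5-fold limit it was 476 (260 higher, 216 lower). It was 111 with each cell weighing the same (55 higher, 56 lower) and 8 after thinning to 2000 molecules (1 higher, 7 lower). Thinning leaves fewer molecules, so fewer genes can reach the molecule limit. The number of genes tested after thinning or with equal weights is not given here. Those counts thus cannot be read as shares or set against the main count. TMM scaling shifted all log2 ratios by 0.05 and gave 71 genes, and leaving out the 1 member highest in Spp1, chosen after seeing the data, gave 64. Spp1 turned to 0.70 with a marker sum of at least 120, 0.48 without members of at least 20 leukocyte molecules per 10000, 0.67 without the member highest in it and 0.43 without the highest cell of each pool. The medians of the ion channel list (-0.33 to 0.09), the transcription factor list (-0.05 to 0.14) and the immediate early list (-0.01 to 0.24) changed sign under at least 1 setting, and the cause was not tested. Mmp3 was past 2-fold in 12 of 12 alternatives. Scrublet marked 6 and 4 cells, of which 1 and 0 were members, and at 0.486% in a pool its marks are few. No paired analysis was possible because each genotype has 1 pool. Genes under 100 molecules are limited by counting error, and the spread between mice is not seen in these data.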
